A study of Mus musculus with 6 samples.

Results

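The small leucine-rich proteoglycans are secreted matrix proteins in which a short protein core of leucine-rich repeats carries chondroitin, dermatan or keratan sulfate chains or none at all. They bind fibrillar collagens and set how fibrils grow and pack, and several also hold TGF-beta in the matrix or bind cell surface receptors. Fibroblasts are a main source of them in the heart. The genes were chosen by symbol: Dcn, Bgn, Lum, Fmod, Ogn, Omd, Aspn, Prelp and Podn, 9 in all. Of these, 8 were matched to a row of the 33682 in the gene table, and Podn was not analysed here. The rule would have taken the row with the highest mean level where a symbol recurred, but 0 symbols recurred, so no measured value decided a member under it.

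RNA sequencing compared 2 groups of 3 samples of cultured heart cells of neonatal rats. The Alox5KO medium group received conditioned medium, the supernatant of another culture, from ALOX5-/- BMMCs, which are bone marrow-derived mast cells without 5-lipoxygenase, the enzyme that starts leukotriene synthesis. The WT medium group received the medium of WT BMMCs. Mast cells were treated with TNF-a, an inflammatory cytokine, in both groups, and the sequenced heart cells are labelled WT in all 6 samples, so the groups differ in the donor of the medium. The design text describes a question about mast cell leukotrienes and fibrosis-related responses of fibroblasts. The sources used here give neither the time the cells spent in the medium nor whether the replicates were separate cultures. The p-values therefore measure no more than the scatter among these samples, part or all of which may be technical. No sample without mast cell medium was analysed here.

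The sample labels call the cells cardiomyocytes (NRCMs), whereas the design text names NRCFs, a fibroblast culture, and the fibroblast markers were by far the more abundant. All 18 fibroblast markers passed the abundance filter, with a sum of 12834 to 14721 FPKM in Alox5KO medium and 10787 to 12835 FPKM in WT medium. FPKM are fragments scaled to gene length and library size, so levels of different genes can be compared. The 18 cardiomyocyte markers with a row summed to 164 to 190 FPKM in Alox5KO medium and 100 to 127 FPKM in WT medium. By group mean, the most abundant was Tnnt2 in Alox5KO medium, at 79.9 FPKM, and Atp2a2 in WT medium, at 67.8 FPKM. Myl2 was listed at 0. Reads recovered from the deposited values totalled 14955850 to 15766187 per library in Alox5KO medium and 13284088 to 14389010 in WT medium.

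Of the 6 proteoglycan genes abundant enough to test, Dcn and Lum were lower in Alox5KO medium, Ogn was higher, and Bgn, Prelp and Fmod did not pass the test. Dcn averaged 134 ± 66.3 FPKM in Alox5KO medium and 2219 ± 711 FPKM in WT medium (SD, n = 3 each), so that its mean in WT medium was 16.6 times that in Alox5KO medium. Bgn, its closest relative, averaged 1806 ± 54.7 FPKM in Alox5KO medium and 1772 ± 79.1 FPKM in WT medium. Ogn, the 1 gene that passed the test in the other direction, averaged 16.1 ± 5.5 FPKM in Alox5KO medium and 1.61 ± 1.03 FPKM in WT medium, a ratio of 10.0.

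Differences were tested with limma on log2(FPKM + 1) over the 12341 genes that averaged 1 FPKM or more, and a gene was called where its Benjamini-Hochberg adjusted p was under 0.05. Log2 fold changes are Alox5KO medium minus WT medium throughout. All 6 tested proteoglycan genes averaged 1 FPKM or more in each group, so none passed the filter through 1 group alone. The fit called 3 of these 6, against 20.7% of all tested genes. It called 1 of 6 higher, against 10.0% of all tested genes, and 2 of 6 lower, against 10.6%. The values of the groups did not overlap for 3 of the 6, against 37.6% of all tested genes. Of these, 1 was higher and 2 were lower, against 18.8% of all tested genes in each direction. The median log2 fold change of the 6 was -0.71, and that of all tested genes was -0.00082. Without WT medium replicate 1 the fit called 1637 genes in place of 2551, and it called 2 of the 6 without Alox5KO medium replicate 1, WT medium replicate 1 or WT medium replicate 2.

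**Figure D1:**
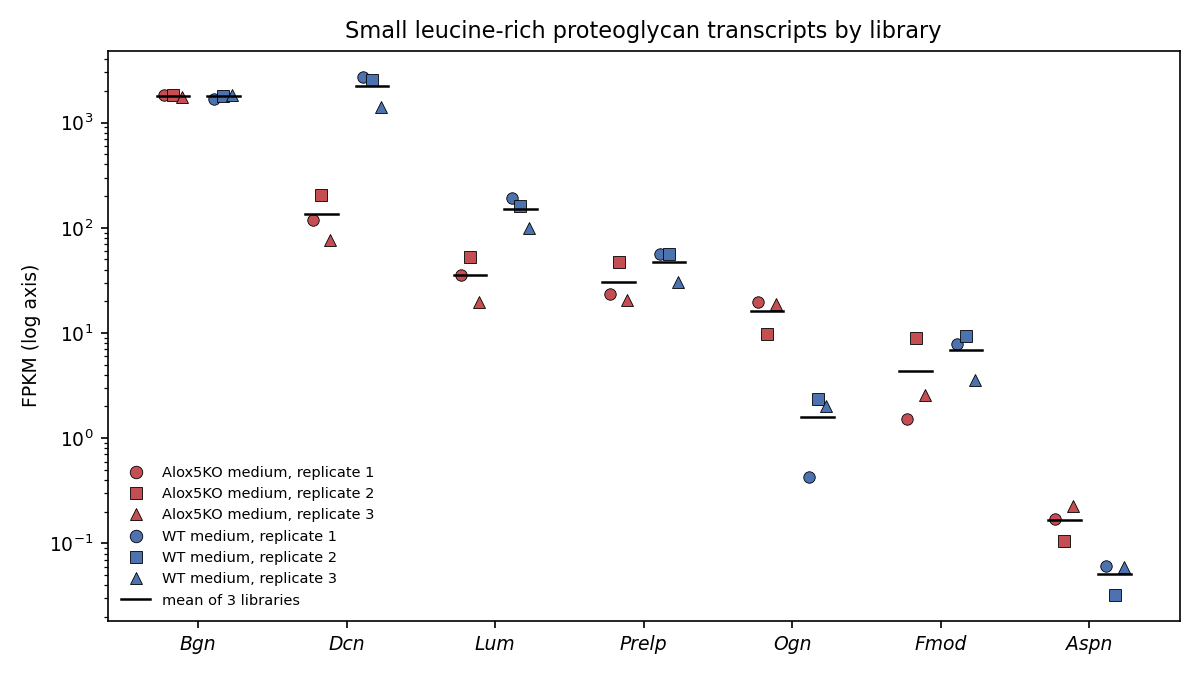
FPKM of 7 small leucine-rich proteoglycan genes in each of the 6 libraries, on a log axis, with Alox5KO medium in red and WT medium in blue; marker shapes give the replicate and bars the mean of 3 libraries. Bgn sits between 1682 and 1841 FPKM in every library, whereas Dcn is at 76.9 to 207 FPKM in Alox5KO medium and 1407 to 2731 FPKM in WT medium. Omd, at 0 in all libraries, cannot be drawn on this axis.

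Dcn encodes decorin, a class I member with a single chondroitin or dermatan sulfate chain that coats collagen fibrils and binds TGF-beta. Its level was 118, 207 and 76.9 FPKM in replicates 1, 2 and 3 of Alox5KO medium, against 2731, 2519 and 1407 FPKM in WT medium. All 3 libraries of Alox5KO medium lay far below the lowest of WT medium. The log2 fold change was -4.10 (SE 0.44, 95% interval -5.20 to -3.00, adjusted p = 0.0021 in limma). These values rested on 11726 reads in Alox5KO medium and 171093 in WT medium, so counting error was small beside the spread between libraries. Ranked by FPKM within each library, Dcn stood at 718, 357 and 1128 in Alox5KO medium, whereas it was among the most abundant transcripts of WT medium, at ranks 16, 20 and 40. The call held when each library was left out in turn, with log2 fold changes of -4.47 to -3.76 and adjusted p of 0.00087 to 0.019. In bulk RNA, fewer cells of a type and less of a transcript per cell cannot be told apart, here and for the other genes.

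Most genes on the list of 10 smooth muscle and pericyte markers differed in the direction opposite to Dcn. Which cells carried these transcripts was not tested. Of the 10, 9 were tested, and 7 were called higher and 1 lower. Of all tested genes, 10.0% were called higher and 10.6% lower. The 10 markers summed to 4932 to 6774 FPKM in Alox5KO medium and 1071 to 1141 FPKM in WT medium. Of the 10, 0 were listed at 0 throughout. Most of the sum came from Tagln, an actin-binding protein, and Acta2, an actin. Tagln averaged 2945 FPKM in Alox5KO medium and 707 FPKM in WT medium, and Acta2 2776 and 340 FPKM. The 1 lower call was Kcnj8 (log2 fold change -1.83, adjusted p = 0.00077 in limma), Des was not called and Rgs5 was below the filter. Among the 18 fibroblast markers 4 were called higher and 2 lower, and the most abundant, Col1a1, was not called. The lower calls were Pdgfra (log2 fold change -1.09, adjusted p = 0.00017 in limma) and Fn1 (-1.10, adjusted p = 0.0017). The higher calls were Vim, Col3a1, Pdgfrb and Tcf21, with log2 fold changes of 0.69 to 0.94. There were 2 higher calls without Alox5KO medium replicate 1 or 3. The remaining marker lists held fewer tested genes: of the 10 tested cardiomyocyte markers 4 were called higher, and of the 2 tested mast cell markers both were called lower. Of the 4 cardiomyocyte calls 2, Pln and Myh7, averaged under 1 FPKM in WT medium and passed the filter through Alox5KO medium, as did Notch3 of the smooth muscle and pericyte list. The cardiomyocyte list had 2 higher calls with the filter at 5 FPKM, which left out Pln and Myh7 untested. The second mast cell marker, Gata2, lost its call in every leave-one-out fit but that without Alox5KO medium replicate 3. Kit, a mast cell marker below the filter and so untested, went the other way, with 248 reads in Alox5KO medium and 136 in WT medium. Its lowest level in Alox5KO medium was 0.801 FPKM, and its highest in WT medium was 0.770 FPKM. The mast cell markers summed to 19.8 to 27.3 FPKM in Alox5KO medium and 42.2 to 57.1 FPKM in WT medium, most of it Cpa3, a mast cell carboxypeptidase, with Fcer1a, Mcpt4, Ms4a2 and Tpsb2 listed at 0. Endothelial markers summed to 10.6 to 12.7 FPKM in Alox5KO medium and 13.2 to 15.3 FPKM in WT medium, led by Egfl7 and with Emcn listed at 0. Leukocyte markers summed to 23.5 to 38.3 FPKM in Alox5KO medium and 31.8 to 36.1 FPKM in WT medium, led by Cd14 and with Cd3e listed at 0. Each of these last lists had 1 lower call, lost without Alox5KO medium replicate 3 or WT medium replicate 2, for endothelial markers also without Alox5KO medium replicate 1 or WT medium replicate 3, and for leukocyte markers also without Alox5KO medium replicate 2 or WT medium replicate 1. The part of these markers in the proteoglycan results was not tested.

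Bgn encodes biglycan, the other class I member at a high level, which carries a pair of chondroitin or dermatan sulfate chains and, when freed from the matrix, binds the Toll-like receptors Tlr2 and Tlr4. Its level was 1834, 1841 and 1743 FPKM in Alox5KO medium, against 1682, 1807 and 1828 FPKM in WT medium. The groups overlapped, and no library departed from the others by much. The log2 fold change was 0.03 (SE 0.10, adjusted p = 0.89 in limma). Its 95% interval, -0.21 to 0.26, gives the range of differences these samples allow.

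The balance of these 2 class I genes was compared directly. Per unit of length, Bgn was 15.6, 8.91 and 22.7 times Dcn in Alox5KO medium, against 0.616, 0.717 and 1.30 times in WT medium. The mean log2 ratio of Bgn to Dcn was 3.86 ± 0.67 in Alox5KO medium and -0.27 ± 0.57 in WT medium (SD, n = 3 each). The difference of 4.13 had an exact two-sided permutation p of 0.1, the smallest that 3 against 3 samples can give, so this test could not pass 0.05. The 2 genes were not equally variable, since the highest Dcn level within Alox5KO medium was 2.69 times the lowest, whereas the same ratio for Bgn was 1.06.

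Dcn and Bgn made up most of the summed FPKM of the 8 genes. Bgn held 90.3%, 85.0% and 92.6% of the sum in Alox5KO medium, against 36.0%, 39.7% and 54.3% in WT medium. Dcn held 5.79%, 9.54% and 4.09% in Alox5KO medium, against 58.5%, 55.3% and 41.7% in WT medium. The sum itself was 2032, 2165 and 1882 FPKM in Alox5KO medium, against 4668, 4556 and 3370 FPKM in WT medium. With Bgn left out, the other genes summed to 198, 325 and 139 FPKM in Alox5KO medium, against 2986, 2749 and 1542 FPKM in WT medium. Ogn held 0.971%, 0.453% and 1.00% in Alox5KO medium, against 0.0092%, 0.052% and 0.060% in WT medium.

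**Figure D2:**
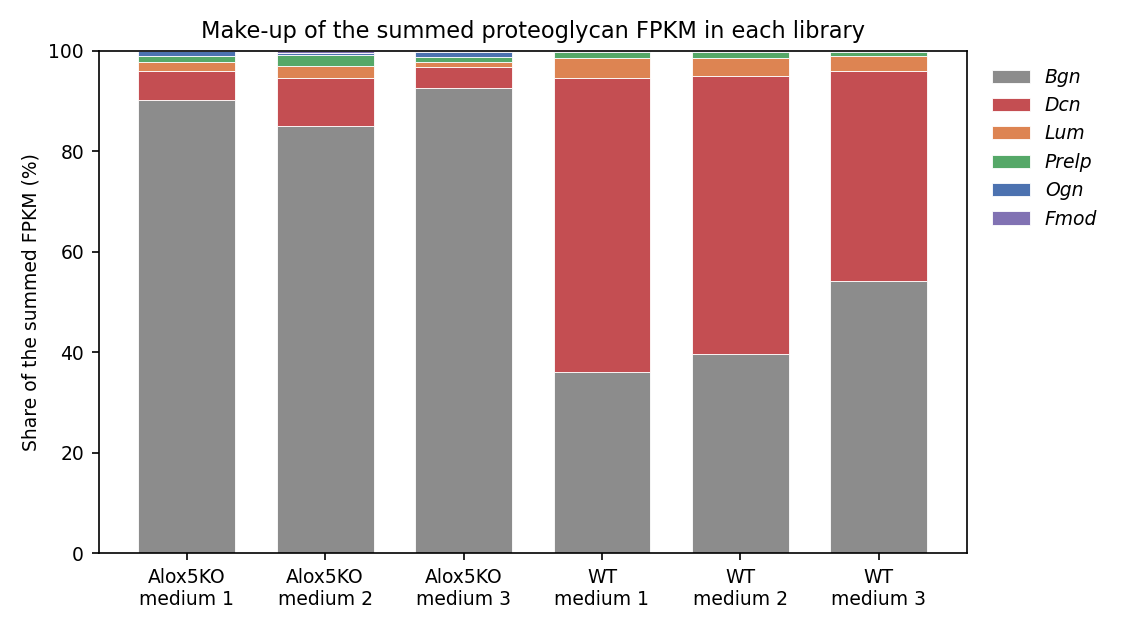
Share in percent of each gene in the summed FPKM of the small leucine-rich proteoglycan genes, 1 bar per library. Bgn fills 85.0% to 92.6% of the bars of Alox5KO medium, and Dcn is the larger share in WT medium replicates 1 and 2, at 58.5% and 55.3%.

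Aspn encodes asporin, the class I member named for its run of aspartate residues, which binds collagen and TGF-beta. It stayed below the abundance filter, with 6, 4 and 8 reads in Alox5KO medium, against 2, 1 and 2 reads in WT medium. These are 0.169, 0.105 and 0.226 FPKM in Alox5KO medium, against 0.061, 0.032 and 0.059 FPKM in WT medium. Scaled to depth, the reads stood in a ratio of 3.29 with a 95% interval of 1.18 to 11.3 that covers counting error only. The gene overlaps Cenpp, a centromere protein gene on the opposite strand with a mean of 2.39 FPKM. The sources used here do not say whether reads were counted by strand.

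Class II holds Lum, Prelp, Fmod and Omd, a branch of the family that includes several keratan sulfate carriers. Lum encodes lumican, a collagen-binding protein that limits fibril width, as known from the mouse cornea. Its level was 35.2, 52.2 and 19.7 FPKM in Alox5KO medium, against 191, 161 and 99.1 FPKM in WT medium. The groups did not overlap, with replicate 2 of Alox5KO medium and replicate 3 of WT medium nearest to each other. Lum had a log2 fold change of -2.10 (SE 0.42, 95% interval -3.16 to -1.03, adjusted p = 0.023 in limma), and the mean in WT medium was 4.21 times that in Alox5KO medium. The call was lost without Alox5KO medium replicate 1 (adjusted p = 0.066), without WT medium replicate 1 (adjusted p = 0.086) and without WT medium replicate 2 (adjusted p = 0.11), with log2 fold changes of -2.42 to -1.73 over the 6 fits. Per unit of length, Dcn was 3.34, 3.95 and 3.91 times as abundant as Lum in Alox5KO medium, against 14.3, 15.7 and 14.2 times in WT medium.

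Prelp encodes a class II member whose basic end binds heparan sulfate and which anchors basement membranes to connective tissue. Its level was 23.6, 47.0 and 20.8 FPKM in Alox5KO medium, against 56.1, 56.8 and 30.3 FPKM in WT medium. Replicate 2 of Alox5KO medium lay above replicate 3 of WT medium, so the groups overlapped. Prelp had a log2 fold change of -0.67 (SE 0.40, 95% interval -1.66 to 0.32, adjusted p = 0.32 in limma). Per unit of length, Prelp was 0.670, 0.899 and 1.06 times as abundant as Lum in Alox5KO medium, against 0.294, 0.353 and 0.306 times in WT medium.

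Fmod encodes fibromodulin, which shares a collagen site with lumican and steers collagen cross-linking. Its level was 1.51, 8.91 and 2.55 FPKM in Alox5KO medium, against 7.85, 9.43 and 3.55 FPKM in WT medium. Fmod spread most of the 6 tested genes within Alox5KO medium, where its highest level was 5.92 times its lowest. Fmod had a log2 fold change of -0.75 (SE 0.62, 95% interval -2.32 to 0.81, adjusted p = 0.48 in limma), an interval that spans a large fall and a rise. Omd, osteomodulin of bone, was listed at 0 in all 6 libraries. A listed 0 was not read as absence or as a limit on the level.

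Ogn encodes osteoglycin, also called mimecan, a class III member of bone, cornea and the vessel wall. Its level was 19.7, 9.80 and 18.9 FPKM in Alox5KO medium, against 0.429, 2.35 and 2.04 FPKM in WT medium. The lowest library of Alox5KO medium was well above the highest of WT medium. The log2 fold change was 2.75 (SE 0.42, 95% interval 1.73 to 3.78, adjusted p = 0.0065 in limma), from 1971 reads in Alox5KO medium and 176 in WT medium. The call held when each library was left out in turn, with adjusted p of 0.0027 to 0.023. It was lost with the replicate number as a block, at an adjusted p of 0.060 in limma. The pseudocount compresses changes at levels this low, and with a pseudocount of 0.1 the log2 fold change was 3.46.

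**Figure D3:**
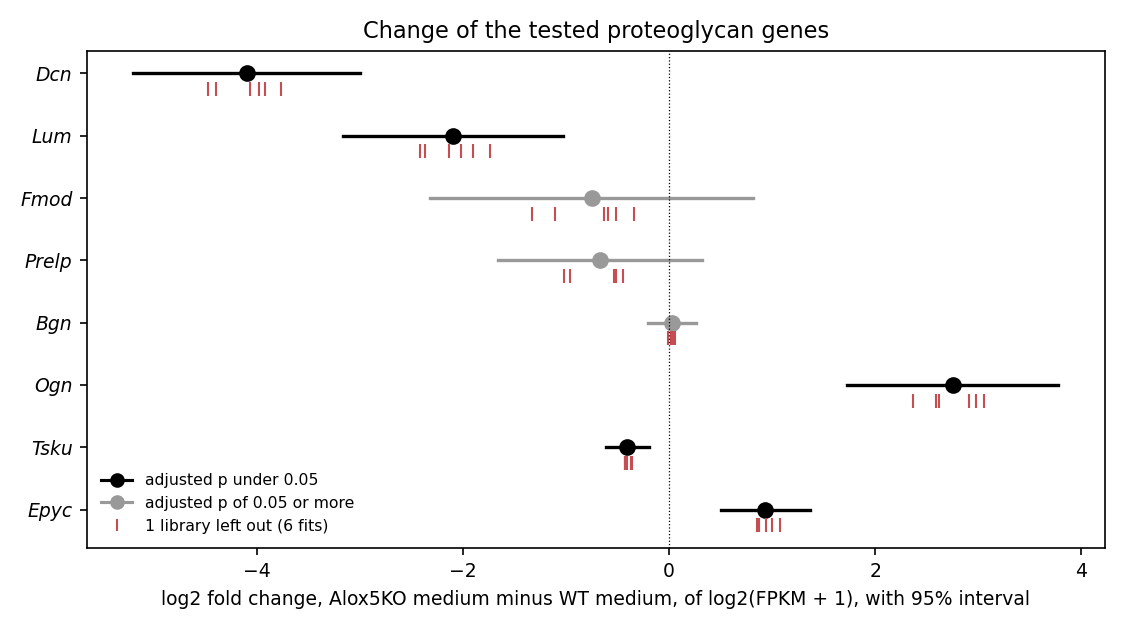
Log2 fold change of log2(FPKM + 1), Alox5KO medium minus WT medium, with 95% intervals from limma, for the 6 tested genes and for Tsku and Epyc; red ticks give the 6 fits with 1 library left out. Dcn at -4.10 and Ogn at 2.75 lie at opposite ends, and the intervals of Fmod, Prelp and Bgn include 0.

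The order of the levels differed between the groups. In Alox5KO medium it ran Bgn, Dcn, Lum, Prelp, Ogn, Fmod and Aspn by group mean, with Omd, listed at 0, left out. The ranges of the neighbours Lum and Prelp overlapped there, at 19.7 to 52.2 and 20.8 to 47.0 FPKM, and those of the other neighbours did not. In WT medium it ran Dcn, Bgn, Lum, Prelp, Fmod, Ogn and Aspn. The ranges of the neighbours Dcn and Bgn overlapped there, at 1407 to 2731 and 1682 to 1828 FPKM, and those of the other neighbours did not.

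Within each group, 4 genes varied in the same libraries. Dcn, Lum, Prelp and Fmod were all highest in replicate 2 of Alox5KO medium and all lowest in replicate 3 of WT medium. On the log2 scale, replicate 2 of Alox5KO medium exceeded the mean of the other libraries of its group by 1.11 for Dcn, 0.96 for Lum, 1.05 for Prelp and 1.73 for Fmod. Replicate 3 of WT medium differed from the mean of the others by -0.90 for Dcn, -0.82 for Lum, -0.87 for Prelp and -1.08 for Fmod. Ogn went the other way in replicate 2 of Alox5KO medium, at -0.91. In WT medium it was highest in replicate 2, at 0.69, with 0.47 in replicate 3 and -1.16 in replicate 1, which had 16 reads. The second principal component of all tested genes, which held 11.7% of the variance, had replicate 2 of Alox5KO medium and replicate 3 of WT medium at opposite ends. They lay at -17.0 and 25.0, with the other libraries between -11.1 and 9.09. The smooth muscle and pericyte markers summed to 6078, 4932 and 6774 FPKM in Alox5KO medium, lowest in replicate 2. In WT medium they summed to 1071, 1133 and 1141 FPKM, so replicate 3 hardly exceeded replicate 2. Their part in the spread of the proteoglycan genes was not tested.

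Other members of the family were read from a list of 9 further genes, of which 2 were abundant enough to test. Epyc encodes epiphycan, a class III member of growth cartilage and the closest relative of Ogn tested here. Its level was 2.21, 1.92 and 1.68 FPKM in Alox5KO medium, against 0.409, 0.875 and 0.365 FPKM in WT medium, and the groups did not overlap. The log2 fold change was 0.93 (SE 0.19, adjusted p = 0.0078 in limma), or 1.72 with a pseudocount of 0.1. With a mean under 1 FPKM in WT medium, it passed the filter through Alox5KO medium, where it had 188 reads against 47 in WT medium. Tsku encodes tsukushi, an inhibitor of several secreted growth factors. Its level was 47.1, 51.2 and 50.0 FPKM in Alox5KO medium, against 63.8, 70.1 and 63.5 FPKM in WT medium. Tsku had a log2 fold change of -0.41 (SE 0.09, adjusted p = 0.013 in limma), and the call was lost without WT medium replicate 2 (adjusted p = 0.065).

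Several of these genes lie side by side in the genome. Positions are those of the table, and the sources used here do not name its rat build. Dcn (ENSRNOG00000004554) spans 38742051 to 38782323 on the plus strand of chromosome 7, and Lum (ENSRNOG00000004610) follows 37.4 kb on at 38819771 to 38826862. Kera lies 31.2 kb beyond Lum and Epyc a further 31.8 kb on, all on the same strand. Neighbours on this stretch did not share a direction, since Dcn and Lum were lower in Alox5KO medium, Epyc was higher, and Kera was listed at 0 in every library. The nearest tested gene before Dcn was Btg1, an antiproliferative gene 927 kb away, with a log2 fold change of -0.53 (adjusted p = 0.0076 in limma).

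On chromosome 13, Prelp (ENSRNOG00000003120) spans 50749514 to 50761355 on the minus strand, and Fmod (ENSRNOG00000003183) lies 112 kb on at 50873605 to 50885563 on the plus strand. Their tested neighbours were Sox13, a transcription factor gene with a log2 fold change of 0.64 (adjusted p = 0.013 in limma, lost without WT medium replicate 1 at 0.054), and Btg2, a relative of Btg1, at -0.23 (adjusted p = 0.32). Bgn (ENSRNOG00000055962) spans 157319046 to 157331204 on the minus strand of chromosome X. It lies between Slc6a8, the creatine transporter gene, with a log2 fold change of 0.72 (adjusted p = 0.0040 in limma), and AABR07042454.2 at -0.27 (adjusted p = 0.35).

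The chromosome 17 genes have near copies in the table, which makes their levels uncertain. Ogn (ENSRNOG00000029792) spans 14607442 to 14627937, Omd (ENSRNOG00000046658) 14635184 to 14637832 and Aspn (ENSRNOG00000050431) 15495790 to 15519282, all on the minus strand. A second row described as osteoglycin, NEWGENE_1308171, lies 820 kb from Ogn, and the rows LOC103690116 and Aspnl1 lie 838 kb from Omd and 816 kb from Aspn. Reads from such copies could be split between rows or dropped in counting. The second osteoglycin row had 50 reads in Alox5KO medium and 14 in WT medium, and with both rows summed the Ogn log2 fold change was 2.65 (SE 0.32, adjusted p = 0.0015 in limma). Aspnl1 had 8.86, 0.526 and 2.73 FPKM in Alox5KO medium, against 0.233, 0.150 and 1.09 FPKM in WT medium. These groups overlapped, with a log2 fold change of 1.41 for Aspnl1 (adjusted p = 0.25 in limma), or 2.08 (adjusted p = 0.035) without Alox5KO medium replicate 2. The log2 fold change of Aspn and Aspnl1 summed was 1.43 (SE 0.69, adjusted p = 0.23 in limma). LOC103690116 had 2 reads in Alox5KO medium and 0 in WT medium. The tested genes next to these rows were LOC103690033 before Ogn, at -1.67 (adjusted p = 0.26 in limma, or -0.76 with 0.0055 without Alox5KO medium replicate 3), and Iars and Ippk on either side of Aspn, at 0.11 each (adjusted p = 0.51 and 0.64).

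The table's Pfam annotation lists the leucine-rich repeat N-terminal domain for Dcn, Lum, Omd, Aspn and Prelp, and a leucine-rich repeat domain for these and Ogn. It lists neither for Bgn or Fmod, although biglycan and fibromodulin are known to hold both. Among all 24 rows with the N-terminal domain 9 were tested, and these include Dcn, Lum and Prelp themselves. Of the 9, 1 was called higher and 2 lower, against 10.0% and 10.6% of all tested genes. The 2 lower were Dcn and Lum.

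For each tested gene, the 3 genes with the nearest profile were taken by the root mean square difference of centred log2(FPKM + 1) values over the 6 samples. For Dcn these were Adamts15, a protease of the matrix, at a difference of 0.42, and Csf2rb and Csf2, a cytokine receptor subunit and a cytokine gene, at 0.44 each. Csf2 averaged 0.669 FPKM in Alox5KO medium and 28.7 FPKM in WT medium, and Csf2rb 0.205 and 25.2 FPKM. Both thus passed the filter through WT medium. Adamts15 averaged 8.20 FPKM in Alox5KO medium and 104.9 FPKM in WT medium. For Lum they were Hgf, the hepatocyte growth factor gene, at 0.19, and Ackr3, a chemokine scavenger receptor, and Cd34, a cell surface sialomucin, at 0.26 each. For Ogn they were Usp18, Palmd and Mx2, at 0.30 to 0.33, of which Palmd averaged 14.5 FPKM in Alox5KO medium and 1.71 FPKM in WT medium. Usp18 averaged 7.30 FPKM in Alox5KO medium and 0.267 FPKM in WT medium, and Mx2 8.14 and 0.147 FPKM. Usp18 and Mx2 thus passed the filter through Alox5KO medium. Prelp and Fmod shared 2 of their nearest genes, Gpc3, a glypican, and LOC100359600, and the third was Fam110c for Prelp and Sfrp2, a secreted Wnt inhibitor, for Fmod. Gpc3 differed from the Prelp profile by 0.066. Bgn, whose level hardly varied, was nearest to Ets1, Rbsn and R3hdm2, at 0.022 to 0.028.

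The enzymes that build and trim these proteoglycans were read from lists, with counts set beside the 10.0% higher and 10.6% lower of all tested genes. Of 22 genes for the linker and for chondroitin or dermatan sulfate chains, all tested, 5 were called higher and 1 lower, with a median log2 fold change of -0.04. The 1 lower gene was Chsy3, a chondroitin sulfate synthase, at 10.5 ± 1.15 FPKM in Alox5KO medium and 25.1 ± 4.98 FPKM in WT medium (log2 fold change -1.17, SE 0.15, adjusted p = 0.00064 in limma). The next by p were B3gat3, which finishes the linker, at a log2 fold change of 0.41 (adjusted p = 0.017 in limma), and Csgalnact1, which starts the chain, at 0.72 (adjusted p = 0.018). B3gat3 lost its call without Alox5KO medium replicate 1 or 3 or WT medium replicate 1 or 2 (adjusted p of 0.054 to 0.067), and Csgalnact1 without Alox5KO medium replicate 2 or 3 (0.062 and 0.070). Of the 5 higher genes 1, the sulfotransferase gene Chst7, passed the filter through Alox5KO medium. Leaving out any 1 library lowered the number of higher calls in this list: there were 3 without Alox5KO medium replicate 2 or WT medium replicate 3, 2 without Alox5KO medium replicate 1, 1 without WT medium replicate 1 or 2, and 0 without Alox5KO medium replicate 3, which left 2 lower calls.

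Of the 6 tested genes for keratan sulfate, 3 were called higher and 0 lower, with a median of 0.37. B3gnt2, which extends the chain, was at 14.1 ± 1.61 FPKM in Alox5KO medium and 9.61 ± 0.34 FPKM in WT medium (log2 fold change 0.50, adjusted p = 0.012 in limma). Chst2, a sulfotransferase, had a log2 fold change of 0.82 (adjusted p = 0.039 in limma) and B3gnt7, another extending enzyme, 0.65 (adjusted p = 0.047). Both lost the call in several leave-one-out fits, with adjusted p up to 0.13 for Chst2 without WT medium replicate 2 and 0.16 for B3gnt7 without Alox5KO medium replicate 3. B3gnt7 averaged 0.741 FPKM in WT medium, so it passed the filter through Alox5KO medium, where it averaged 1.78 FPKM, and without the filter its adjusted p was 0.068. The list had 1 higher call without Alox5KO medium replicate 2 or 3 or WT medium replicate 1 or 2, and 2 without WT medium replicate 3.

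Of the 6 tested genes for core protein trimming and tyrosine sulfation, 2 were called higher and 2 lower, with a median of 0.10. Bmp1, the protease that cuts the propeptides of biglycan and of fibrillar collagens, was at 31.9 ± 2.33 FPKM in Alox5KO medium and 67.0 ± 2.77 FPKM in WT medium (log2 fold change -1.05, SE 0.09, adjusted p = 8.2e-05 in limma). PCOLCE2, an enhancer of the cleavage of fibrillar collagens, had a log2 fold change of -0.65 (adjusted p = 0.0016 in limma). It averaged 7.66 FPKM in Alox5KO medium and 12.6 FPKM in WT medium. Pcolce, on the same list, was more abundant and was not called (adjusted p = 0.47 in limma). Its mean was 438 FPKM in Alox5KO medium and 402 FPKM in WT medium. Tpst2, which sulfates tyrosines such as those of fibromodulin and lumican, was at 40.7 ± 9.05 FPKM in Alox5KO medium and 17.5 ± 2.34 FPKM in WT medium (log2 fold change 1.16, adjusted p = 0.0015 in limma). The second higher call was Tll1, at 4.62 FPKM in Alox5KO medium and 2.33 FPKM in WT medium (log2 fold change 0.78, adjusted p = 0.021 in limma). The higher calls fell to 1 without Alox5KO medium replicate 1 or 3 or WT medium replicate 1 or 2.

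The binding partners were read in the same way. Of 7 tested fibrillar collagen genes, 1 was called higher and 0 lower, with a median of 0.27. The 1 was Col3a1, the chain of type III collagen, at 2293 ± 186 FPKM in Alox5KO medium and 1285 ± 201 FPKM in WT medium (log2 fold change 0.84, adjusted p = 0.0028 in limma). Without WT medium replicate 3 the list had 3 higher calls, and without WT medium replicate 2 it had 1 lower call. Of 12 tested genes for growth factors and receptors that these proteins bind, 3 were called higher and 2 lower, with a median of -0.08. The growth factor Tgfb3 was at 267 ± 56.3 FPKM in Alox5KO medium and 23.1 ± 4.96 FPKM in WT medium (log2 fold change 3.48, SE 0.19, adjusted p = 1.1e-05 in limma). Itgb1, the common chain of collagen-binding integrins, had a log2 fold change of 0.97 (adjusted p = 0.00015 in limma), and Tgfb2 had 1.90 (adjusted p = 0.00077). Tgfb1, on the same list, was not called (adjusted p = 0.98 in limma). It averaged 57.6 FPKM in Alox5KO medium and 57.7 FPKM in WT medium. The lower calls fell to 1 without Alox5KO medium replicate 1 or 3 or WT medium replicate 1. Of the 2, Itga2, a chain of a collagen receptor, averaged under 1 FPKM in Alox5KO medium and passed the filter through WT medium.

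**Figure D4:**
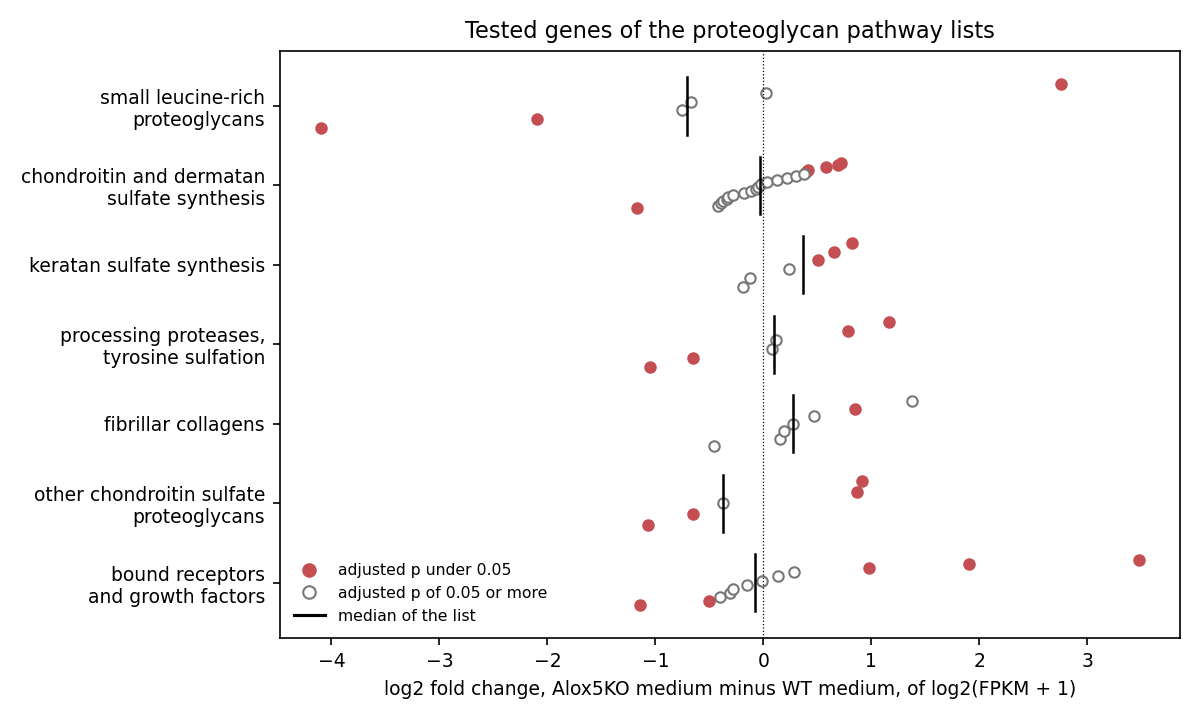
Log2 fold change of log2(FPKM + 1), Alox5KO medium minus WT medium, of every tested gene in 7 lists; each point is a gene, red where its adjusted p was under 0.05, and the bar is the list's median. The proteoglycan genes, with a median of -0.71, run from -4.10 to 2.75, and the 22 genes for chondroitin and dermatan sulfate synthesis have a median of -0.04.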

How the data were processed

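The authors deposited FPKM values per gene with 1 column per sample, gene length, position and annotation, per the file headers. Per the submitters' processing notes, which give no roles, the authors used HISAT2 2.0.5 and featureCounts 1.5.0-p3, with fastp, CASAVA 1.8 and DESeq2 1.20.0, and named mm10, a mouse build. The labels give mouse as the organism, but of the 33682 rows 32883 have rat Ensembl identifiers, 799 are unannotated loci and 0 have mouse identifiers. Groups and replicate numbers were taken from the labels.

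Read numbers were recovered from FPKM times gene length, since 100% of values above 0 came out as whole reads, within 0.05, once divided by 1 step for each column. A listed 0 is not absence, since the ribosomal protein gene Rpl8 was at 0 in 4 libraries. Intervals of reads cover counting error only.

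The 12341 genes that averaged 1 FPKM or more over the 6 samples, 11157 of them protein-coding, were compared as log2(FPKM + 1) with limma 3.58.1 in R 4.3.3, as a two-sided test with trend, robust prior and no block, adjusted after Benjamini and Hochberg at 0.05. On this scale a log2 fold change understates the change of low genes. The ratio of Bgn to Dcn was tested with an exact permutation test in scipy 1.17.1. The fit was checked on simulated data. Replicates of a group differed by more than sampling noise, at a chi-square of 7.05 to 29.7 per degree of freedom.

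The members and gene lists were chosen with earlier results of these data known. Named genes are every member, up to 3 genes per list by smallest p, the 3 nearest profiles and the tested neighbours of each member, and the most abundant gene of each marker list. Kera, Gata2, Pln, Myh7, Notch3, Kcnj8, Des, Rgs5, Chst7 and Itga2 were added after their values were seen. Kit, Pcolce, Tll1, Vcan, Tgfb1, Pdgfrb and Tcf21 were added in the same way. So were the domain annotation, the near copies on chromosome 17 and the alternative that sums the copies. The other alternatives were pseudocounts of 0.1 and 0.5, no filter, a filter at 5 FPKM, quantile normalization, median ratio scaling, TPM, a plain prior, voom on recovered reads, a replicate block, and leaving out each library.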

Additional observations from a re-analysis of the deposited data

How the results depend on the processing

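Leaving out 1 library gave 1637 to 2538 genes called (787 to 1228 higher, 850 to 1310 lower), with the lowest counts without WT medium replicate 1, against 2551, 1238 and 1313 with all 6. The other alternatives gave 2021 to 2652 calls. Leave-one-out called 2 to 3 of the proteoglycan genes, 1 higher and 1 to 2 lower. Over 6 genes and 17 alternatives, 97 of 102 values kept direction and side of the threshold. Of the rest, 3 were lost calls of Lum and 1 the lost call of Ogn in the fit with a replicate block (log2 fold change 2.75, adjusted p = 0.060). Bgn changed sign without WT medium replicate 1, at -0.0097 (adjusted p = 0.98), and ran up to 0.053 in the other leave-one-out fits. The cause was not tested. With the replicate block 2 proteoglycan genes were called, 0 higher and 2 lower, and 2652 genes in all. Whether the replicate numbers pair the samples was not settled. The correlations of same-numbered deviations were -0.096, 0.10 and 0.17, against -0.19 to 0.10 for differently numbered ones. Of 569 values of other called genes, taken from the lists by smallest p and from the tested neighbours, 39 lost the call and 0 reversed. Without the filter on low values, higher calls were 2 in place of 5 for chondroitin or dermatan sulfate synthesis, 1 in place of 3 for keratan sulfate and 1 in place of 2 for trimming and tyrosine sulfation. With the filter at 5 FPKM they were 3 for chondroitin or dermatan sulfate synthesis and 0 in place of 2 for other chondroitin sulfate proteoglycans. That filter left out less abundant genes untested, among them Chst7, Esm1 and Cspg4, so the drop does not bear on their calls. With voom the fibrillar collagens had 2 higher calls, and with the replicate block 1 lower. The difference of the log2 ratio of Bgn to Dcn ran from 3.82 to 4.48 when 1 library was left out, where the smallest possible p is 0.2. No scaling moved the median of all genes by over 0.1. Aspn rested on 18 reads in Alox5KO medium and 5 in WT medium.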

Other observations

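Further members of the family stayed below the abundance filter. Podnl1, a relative of podocan, had 110 reads in Alox5KO medium and 33 in WT medium, a depth-scaled ratio of 3.04 with a 95% interval of 2.05 to 4.64 that covers counting error only. Without the filter its log2 fold change was 0.58 (adjusted p = 0.028 in limma). Ecm2, beside Aspn on chromosome 17, had 24 reads in Alox5KO medium and 9 in WT medium. Optc, the gene of opticin beside Prelp, had 23 reads in Alox5KO medium and 18 in WT medium. Nyx, the gene of nyctalopin of the retina, had 23 reads in Alox5KO medium and 24 in WT medium. Chad, the gene of chondroadherin, had 3 reads in Alox5KO medium and 1 in WT medium, and Chadl, its relative, had 4 and 3.

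Of 5 tested genes for other chondroitin sulfate proteoglycans, 2 were called higher and 2 lower, with a median log2 fold change of -0.37. Of all tested genes, 10.0% were called higher and 10.6% lower. The lower calls were Cd44 and Vcan, with Vcan at 45.0 FPKM in Alox5KO medium and 92.9 FPKM in WT medium. Vcan had a log2 fold change of -1.07 (adjusted p = 0.011 in limma). Cd44, a receptor for hyaluronan that can carry chondroitin sulfate, was at 69.5 ± 3.31 FPKM in Alox5KO medium and 109 ± 1.21 FPKM in WT medium (log2 fold change -0.65, adjusted p = 0.00089 in limma). Esm1, a secreted dermatan sulfate proteoglycan, was at 4.40 ± 0.24 FPKM in Alox5KO medium and 1.98 ± 0.43 FPKM in WT medium (log2 fold change 0.87, adjusted p = 0.0031 in limma). Cspg4, a membrane proteoglycan that is also on the pericyte list, was at 5.10 ± 1.28 FPKM in Alox5KO medium and 2.21 ± 0.40 FPKM in WT medium (log2 fold change 0.91, adjusted p = 0.0064 in limma). The 4 calls of this list held when each library was left out in turn.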
